A study of Mus musculus with 4 samples.

Results

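The genes for the DNA methylation writers and erasers are the DNA methyltransferases Dnmt1, Dnmt3a and Dnmt3b, their cofactor Dnmt3l, the recruiting protein Uhrf1 with its paralog Uhrf2, and the dioxygenases Tet1, Tet2 and Tet3. These 9 genes were taken by name from the 21853 protein-coding genes of GENCODE vM21 on chromosomes of the mm10 (GRCm38) mouse genome. The study applied ChIP-seq, which maps where a protein or histone mark sits on DNA, to organoids of mouse colorectal tumours, labelled AOM/DSS for the carcinogen azoxymethane with dextran sulfate sodium, of clone 3 at passage 14. Antibodies against KMT9alpha, KMT9beta and H4K12me1 gave 1 library each, beside 1 input library that is not analysed here. Tamoxifen (1 µM) and vehicle both stand in the treatment field of every library and the genotype field reads NA, so no treatment or genotype was compared. With 1 library per antibody from 1 clone there is no replicate check on any value below, and all counts describe these 3 peak lists.

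KMT9 is a histone methyltransferase made of KMT9alpha (N6amt1), which carries the catalytic site, and KMT9beta (Trmt112), and it places a single methyl group on lysine 12 of histone H4 (H4K12me1). DNA methylation at CpG sites is set by the de novo enzymes DNMT3A and DNMT3B and copied at each cell division by DNMT1, which UHRF1 brings to the hemimethylated sites left by replication. TET enzymes oxidise methylcytosine and so open the way to its removal. In the intestine, DNMT1 keeps methylation in the dividing crypt cells, and colorectal tumours are known for gains of methylation at CpG islands.

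A peak was assigned to a promoter when it shared at least 1 bp with the 1 kb on either side of any protein-coding start of the gene. A body peak overlapped the gene but none of its promoter windows. Starts less than 2 kb apart were joined into a start cluster, numbered 5′ to 3′ along the gene, and the 9 genes had 26 such clusters holding 46 different starts of 54 coding transcripts. CpG content is given as the ratio of observed to expected CpG in the 2 kb centred on a start.

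The 200 bases just upstream of 5 start clusters show how different the promoters of these genes are. They are read 5′ to 3′ on the strand of the gene from the RefSeq copy of GRCm38.p6, with each CpG in capitals, and none of their bases lies in an exon of a protein-coding transcript. Dnmt1 and Dnmt3a are each shown at the cluster that holds the principal start and all 3 libraries, and at an alternative cluster without KMT9alpha. Tet1 is shown at its most CpG-rich start, which had no peak.
Dnmt1 start 2 (chr9:20952980-20953179, minus strand): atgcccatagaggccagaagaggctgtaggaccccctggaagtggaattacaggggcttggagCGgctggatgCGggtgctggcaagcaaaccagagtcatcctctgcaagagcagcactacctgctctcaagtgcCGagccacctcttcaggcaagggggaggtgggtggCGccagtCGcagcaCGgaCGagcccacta
Dnmt1 start 1 (chr9:20959889-20960088, minus strand): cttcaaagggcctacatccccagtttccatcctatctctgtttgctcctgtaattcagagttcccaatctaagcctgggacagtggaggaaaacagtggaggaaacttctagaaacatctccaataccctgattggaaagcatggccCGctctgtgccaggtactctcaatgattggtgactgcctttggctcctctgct
Dnmt3a start 1 (chr12:3806327-3806526, plus strand): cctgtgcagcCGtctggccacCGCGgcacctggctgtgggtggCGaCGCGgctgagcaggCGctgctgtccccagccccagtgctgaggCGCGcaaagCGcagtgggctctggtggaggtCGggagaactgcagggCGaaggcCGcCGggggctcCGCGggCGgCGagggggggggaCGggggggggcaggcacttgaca
Dnmt3a start 5 (chr12:3891528-3891727, plus strand): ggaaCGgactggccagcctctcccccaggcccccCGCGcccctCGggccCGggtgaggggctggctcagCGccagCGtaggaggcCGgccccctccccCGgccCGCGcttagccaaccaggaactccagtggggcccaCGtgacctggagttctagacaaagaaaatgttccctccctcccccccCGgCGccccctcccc
Tet1 start 4 (chr10:62887513-62887712, minus strand): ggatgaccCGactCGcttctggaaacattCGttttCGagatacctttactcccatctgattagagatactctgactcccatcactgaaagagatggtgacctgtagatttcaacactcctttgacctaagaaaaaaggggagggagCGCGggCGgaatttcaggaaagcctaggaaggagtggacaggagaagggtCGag

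The Dnmt3a start 1 sequence held 19 CpG and lay whole within peaks of all 3 libraries. The Dnmt1 start 2 sequence held 7 CpG and also lay whole within peaks of all 3. The other 3 sequences had no base in any peak, although Dnmt3a start 5 held 14 CpG and Tet1 start 4 held 8, against 1 at Dnmt1 start 1. The median over all 30935 start clusters of protein-coding genes was 5 CpG in the same window, with quartiles of 2 and 13. A high CpG number was thus seen both with and without peaks in these 5 windows, which were picked with the peak positions known.

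Every one of the 9 genes had a promoter peak in at least 1 library (exact interval 66.4 to 100%), against 70.4% of all protein-coding genes. Peaks of all 3 were at 6 genes: Dnmt1, Dnmt3a, Dnmt3b, Uhrf1, Uhrf2 and Tet3. KMT9alpha was at 7 of the 9 promoters (77.8%, exact Clopper-Pearson 95% interval 40.0 to 97.2%), against 54.2% of all protein-coding genes. KMT9beta was at 8 of 9 (88.9%, 51.8 to 99.7%), against 65.1% of all genes. H4K12me1 was also at 8 of 9, with the same interval, against 44.9% of all genes. All 3 were present at 6 of 9 (66.7%, 29.9 to 92.5%), against 35.5% of all genes, and at the same annotated start at the same 6, against 34.6% of all genes. These intervals cover counting error only; they hold the share of all genes for KMT9alpha, KMT9beta and all 3, and lie above it for H4K12me1. With principal starts only, H4K12me1 was at 7 of 9 (40.0 to 97.2%), against 42.4% of all genes, and the interval held that share too.

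Over all protein-coding genes the share with a promoter peak of each library rose with CpG content. The median highest CpG ratio of a gene's starts was 0.707 over the 9 genes and 0.508 over all protein-coding genes. When all genes were divided by that ratio into 5 classes of equal size, Dnmt3a, Uhrf2, Tet2 and Tet3 fell in the most CpG-rich class. In that class 69.7% of all genes had peaks of all 3 libraries and 74.1% had H4K12me1. The intervals above cover all 9 genes, not those of this class alone, and are not set beside these shares. Dnmt3b, Uhrf1 and Tet1 were in the next class, where 56.4% of genes had all 3, Dnmt1 in the middle class with 39.4%, and Dnmt3l in the one below it with 10.3%. Among the 9 genes H4K12me1 did not follow this order. Tet2 in the richest class lacked it, and all members of the lower classes had it. The part of CpG content in the promoter counts was not tested.

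**Figure D1:**
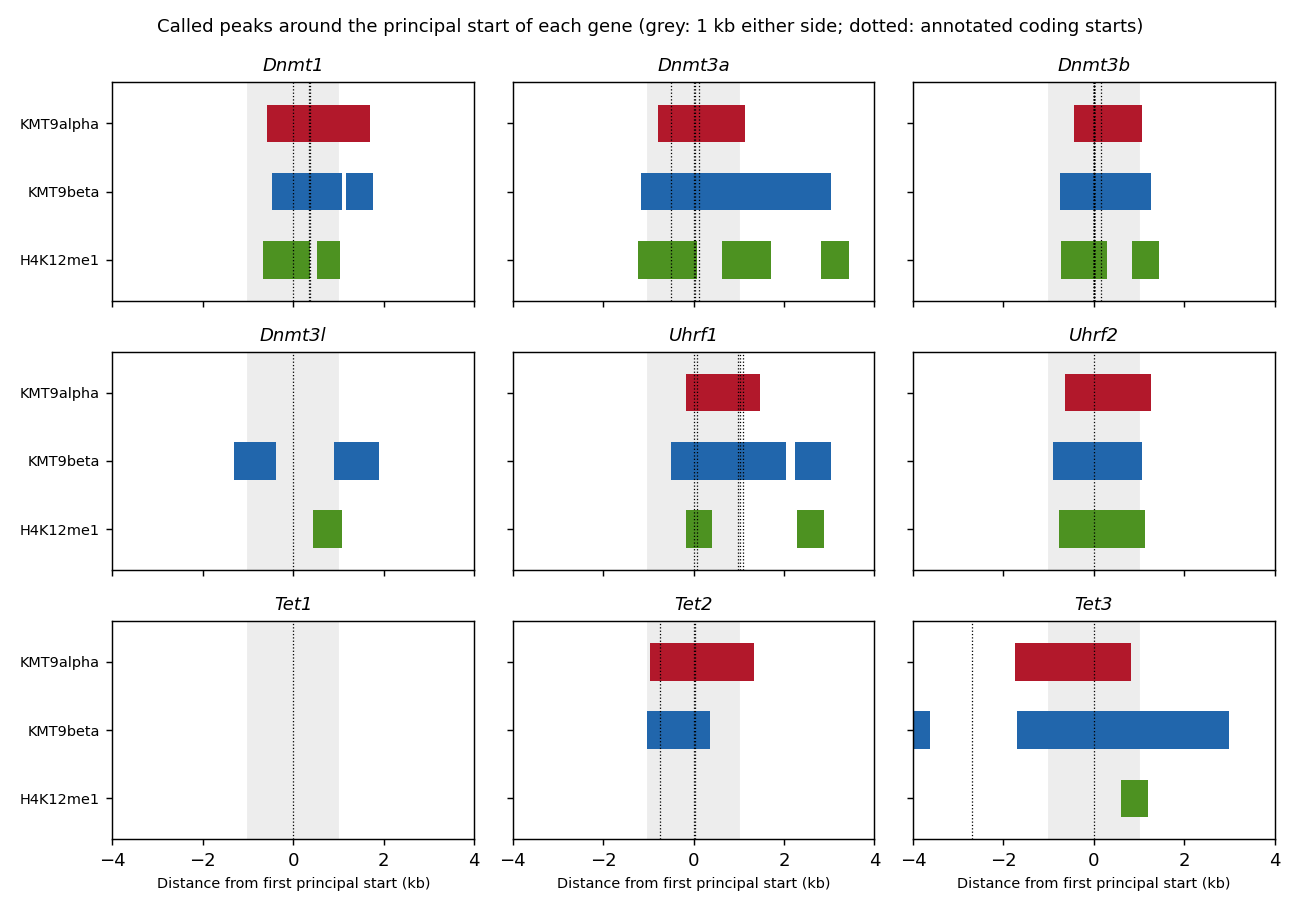
Peaks of KMT9alpha (red), KMT9beta (blue) and H4K12me1 (green) are drawn as bars over distance in kb from the first principal start of each gene, with the promoter window in grey and coding starts as dotted lines. Dnmt1, Dnmt3a, Dnmt3b, Uhrf1, Uhrf2 and Tet3 have bars of all 3 libraries in the grey window, Tet2 lacks H4K12me1, Dnmt3l lacks KMT9alpha, and Tet1 has no bar within 4 kb.

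Dnmt1, the maintenance methyltransferase, lies on the minus strand of chromosome 9 at 20907209 to 20959888. At its principal start the KMT9alpha peak (chr9:20951285-20953567, 2283 bp) had a score of 3100, the KMT9beta peak 165.56 and the H4K12me1 peak 139.72. The score is the authors' and is used only to rank peaks within 1 list. In the KMT9alpha list 5011 peaks (19.2%) had a score of 3100 or more, with the highest at 3233.06, and peaks that share the value 3100 are not ordered among themselves. The KMT9beta score stood at percentile 80.6 of its list and the H4K12me1 score at percentile 85.8. The principal start at 20952979 encodes 1620 residues. A further start at 20959888 (1501 residues, position -6909 bp relative to the principal start) had a CpG ratio of 0.222 against 0.518 at the principal cluster. It carried neither subunit, and only an H4K12me1 peak with a score of 88.85, whose midpoint lay 1198 bp inside the gene. That peak shared 176 bp with the window of this start and was outside a window of 500 bp on either side. The principal cluster alone carried the subunits.

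Dnmt3a, a de novo methyltransferase on the plus strand of chromosome 12 at 3806007 to 3914443, carried peaks that ranked high in all 3 lists at its upstream cluster. The KMT9alpha peak (chr12:3806249-3808165) scored 3100. The KMT9beta peak was 4202 bp long (chr12:3805872-3810073) and scored 786.81, percentile 99.6 of its list. The highest H4K12me1 peak scored 262.26, at percentile 97.0. H4K12me1 was called as separate peaks on either side of the KMT9alpha peak's midpoint, at 3805800 to 3807109 and 3807668 to 3808746, with a gap of 558 bp. This upstream cluster serves the full-length enzyme of 908 residues and had a CpG ratio of 0.895.

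The 6 other Dnmt3a clusters held no KMT9alpha peak. The best known of them is start 5, 84698 bp downstream of the principal start, which encodes the 689-residue short form (Dnmt3a2) that lacks the amino-terminal part and is prominent in embryonic stem cells and germ cells. Start 5 had a KMT9beta peak scored at 62.83, in the lower part of its list at percentile 23.4, and an H4K12me1 peak scored at 132.34, at percentile 84.2. Starts 3 and 6 also had KMT9beta and H4K12me1, start 2 had KMT9beta with a score of 178.01, and starts 4 and 7 had no peak. Among the start clusters KMT9alpha was thus at the CpG-rich upstream cluster only, while KMT9beta was at 5 clusters and H4K12me1 at 4. Starts 2, 3, 4 and 7 belong to transcripts that encode only 41, 93, 140 and 72 residues, and start 6 to transcripts of 34, 181 and 183. Whether these starts are in use was not tested, and their peaks cannot be told from peaks of the gene body.

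Dnmt3b, the other de novo enzyme, has all its starts in 1 cluster (chr2:153649450-153649617, plus strand) with a CpG ratio of 0.707. Its KMT9alpha peak scored 1513.67 (percentile 71.8), its KMT9beta peak 271.12 (percentile 91.9) and its higher H4K12me1 peak 140.97 (percentile 86.1). As at Dnmt3a, H4K12me1 was called on both sides of the KMT9alpha midpoint and not on it, with a gap of 553 bp. The left H4K12me1 peak ended at 153649746, just short of the midpoint at 153649761, so the call turns on the edge of that peak. The flanking arrangement was looked for after the peaks of Dnmt3a had been seen. It held for these 2 of the 6 genes with all 3 libraries, and for 4.66% of the 7747 protein-coding genes with all 3. An H4K12me1 peak lay on a KMT9alpha midpoint at 3 of the 6, Dnmt1, Uhrf2 and Tet3, against 76.7% of those genes.

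Dnmt3l encodes a protein without methyltransferase activity that stimulates the de novo enzymes and acts mainly in germ cells. It lies on the plus strand of chromosome 10 at 78041947 to 78063622 and was the member with KMT9beta and H4K12me1 but no KMT9alpha, a pattern found at 6.69% of all genes. Its highest KMT9beta promoter peak scored 99.98 (percentile 58.9) and its H4K12me1 peak 87.01 (percentile 59.9). Neither covered an annotated start of Dnmt3l, and both lay within 1 kb of a coding start of the neighbouring gene Aire, so they cannot be assigned to Dnmt3l alone. A lower KMT9beta peak upstream of start 1 (chr10:78040987-78041902, score 77.19, percentile 41.1) had no start of another gene within 1 kb. Start 2 had a KMT9beta peak with a score of 51.45, barely above the lowest score in the list of 50.0, and start 3 had none. The highest CpG ratio of its starts was 0.337.

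Uhrf1 binds hemimethylated CpG and recruits DNMT1; it lies on the plus strand of chromosome 17 at 56303321 to 56323486. All 3 libraries were at its promoter, but with ranks lower than at Dnmt1. KMT9alpha scored 1648.0 (percentile 72.8), KMT9beta 108.87 (percentile 63.7) and H4K12me1 74.86 (percentile 40.4), so this mark was lost when only peaks at or above the median score of each list were kept. Uhrf2, a paralog that does not replace Uhrf1 in maintenance, has 1 start on chromosome 19 at 30030513 with a CpG ratio of 0.915, the highest of the 26 clusters. There KMT9alpha scored 3100, KMT9beta 294.81 (percentile 93.2) and H4K12me1 308.77 (percentile 98.1), in a peak of 1900 bp that was wider than 98.1% of its list. H4K12me1 was called at the promoters of 72.3% of the genes on chromosome 19, against 44.9% of all genes, and the part of the chromosome in the Uhrf2 peak was not tested. Without Uhrf2, all 3 libraries were at 5 of 8 genes.

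The 3 Tet genes each had a different promoter pattern. Tet3, which oxidises the paternal genome in the zygote, lies on the minus strand of chromosome 6 at 83362373 to 83459084 and had both subunits within 1 kb of all of its 3 start clusters. At the principal start (83456392, 1803 residues) KMT9alpha scored 3100 (chr6:83455564-83458130), KMT9beta 623.91 in a peak of 4691 bp (percentile 99.1 by score, 99.3 by width), and H4K12me1 87.9 (percentile 60.9). At start 3, 14717 bp downstream and encoding 1668 residues, KMT9alpha scored 769.04, KMT9beta 195.18 and H4K12me1 152.3. The subunits thus scored higher at the principal start and the mark scored higher at start 3. At the upstream start 1 the subunits were called only at the edge of the window, with the KMT9alpha peak of the principal start sharing 47 bp of it and the KMT9beta peaks at most 70 bp. A further KMT9beta peak there (chr6:83460015-83460763) scored 61.19, and no H4K12me1 was called. With 500 bp on either side start 1 had no subunit, and the principal start lost its H4K12me1 peak, so that start 3 alone of the Tet3 starts had all 3.

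Tet2, whose protein lacks the CpG-binding CXXC domain, lies on the minus strand of chromosome 3 at 133463679 to 133545139. KMT9alpha scored 3100 (chr3:133543060-133545361) and KMT9beta 196.86 (percentile 85.3) at its upstream cluster, and no H4K12me1 promoter peak was called. Its downstream start 2 had no peak. This pattern of both subunits without the mark was found at 15.5% of all genes. The cluster had a CpG ratio of 0.809, and in its CpG class 74.1% of genes had H4K12me1. Library depth is unknown, and a mark below the threshold of the list cannot be told from no mark.

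Tet1 lies on the minus strand of chromosome 10 at 62804570 to 62908996 and had neither subunit at any of its 6 start clusters. The principal start (62899118, 2039 residues) had a CpG ratio of 0.222 and no peak. Start 4, with a CpG ratio of 0.617 and transcripts that encode only 47 residues, had none either. In the CpG class of Tet1, 85.8% of genes had a KMT9alpha promoter peak and 92.2% a KMT9beta peak. Those shares count a peak at any start of a gene, and Tet1 had neither subunit at any of its starts. The only promoter peak was H4K12me1 at start 5 (chr10:62880492-62880994, score 81.47, percentile 52.3), next to a start that encodes 2007 residues. H4K12me1 without either subunit was found at 2.10% of all genes. A window of 2 kb on either side added KMT9beta at Tet1, and principal starts only left it with no peak.

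**Figure D2:**
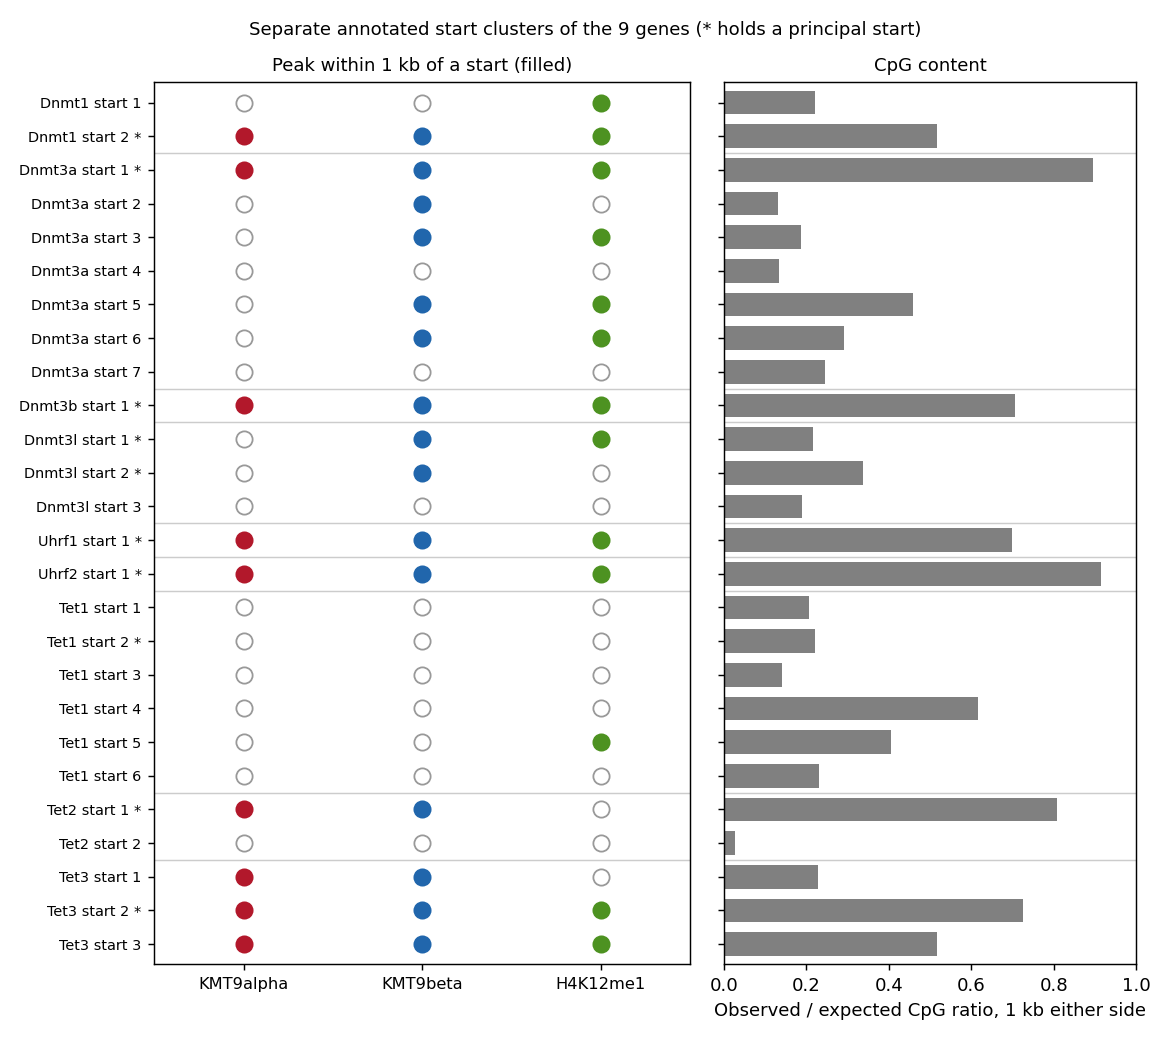
Left, filled circles mark a peak of KMT9alpha, KMT9beta or H4K12me1 within 1 kb of a start in each of the 26 start clusters; right, bars give the highest observed to expected CpG ratio in the 2 kb centred on a start of the cluster. KMT9alpha is at 9 clusters, with no KMT9alpha at 6 of the 7 Dnmt3a clusters or at any of the 6 Tet1 clusters.

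Counted by cluster, all 3 libraries were at 7 of 26, against 25.5% of the 30935 clusters of all genes, and KMT9beta with H4K12me1 was at 4, against 6.85%. Both subunits alone were at 2 (12.5% of all clusters), KMT9beta alone at 2 (9.02%), H4K12me1 alone at 2 (2.55%), and no library at 9 (40.8%). Of the clusters without a principal start, only Tet3 start 3 had all 3 libraries. Some clusters, such as Dnmt3a starts 2, 3, 4, 6 and 7 and Tet1 starts 1, 3 and 4, serve only short coding transcripts. They were counted like the others, here and over all genes. Among the genes with several clusters and a KMT9alpha peak, Tet3 alone of 4 had it at every cluster, against 10.0% of such genes. For KMT9beta it was Tet3 alone of 5, against 30.9%. For H4K12me1 it was Dnmt1 alone of 5, against 17.6%. With 500 bp on either side neither gene had the library at every cluster.

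Where a promoter peak was present, the KMT9alpha score reached 3100 at Dnmt1, Dnmt3a, Uhrf2, Tet2 and Tet3, which is 5 of 7 (71.4%, 29.0 to 96.3%) against 45.6% of the genes with such a peak. The median of the highest promoter score was 233.99 for KMT9beta at the 8 genes and 206.49 at all genes with a peak. For H4K12me1 it was 140.34 at the 8 genes and 104.12 at all genes with a peak. KMT9alpha peaks covered a start at 7 of 7 genes (94.6% of all genes with one), KMT9beta peaks at 7 of 8 (93.8%) and H4K12me1 peaks at 6 of 8 (74.4%). All 8 KMT9alpha promoter peaks overlapped a KMT9beta peak, against 91.3% over all genes, and 7 of 8 overlapped H4K12me1, against 60.5%.

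Inside the gene bodies the counts differed more between libraries, whose lists differ in length (26146 KMT9alpha, 90349 KMT9beta and 60289 H4K12me1 peaks). The 9 genes span 587.0 kb and held 6 KMT9alpha, 55 KMT9beta and 23 H4K12me1 body peaks. KMT9alpha had a body peak in 4 of 9 genes, against 19.8% of all genes, KMT9beta in 8 of 9, against 49.5%, and H4K12me1 in 8 of 9, against 41.0%. Long genes have more room for peaks, so the 6 members of 50 to 150 kb (Dnmt1, Dnmt3a, Uhrf2, Tet1, Tet2 and Tet3) were set beside the 3511 protein-coding genes of that length. Of these 6, KMT9alpha had a body peak in 4, against 32.7%, KMT9beta in 5, against 71.0%, and H4K12me1 in 5, against 60.1%. Per 10 kb the 9 genes had 0.937 KMT9beta peaks (exact Poisson 95% interval 0.706 to 1.22), against 0.428 over all genes and 0.494 over genes of 50 to 150 kb. For H4K12me1 the density was 0.392 (0.248 to 0.588), against 0.279 over all genes. For KMT9alpha it was 0.102 (0.0375 to 0.222), against 0.0784. With the 26146 highest peaks of each list the 9 genes held 6 KMT9alpha, 9 KMT9beta and 11 H4K12me1 body peaks, and KMT9beta no longer had the most. With all peaks the interval lay above the density of all genes for KMT9beta and held it for KMT9alpha and H4K12me1. These intervals take peaks as independent and do not cover the spread between genes. For KMT9beta in genes of 50 to 150 kb the median was 2 body peaks and percentile 95 was 17, with 29% of genes at 0. With equal lists the KMT9beta density was 0.153 (0.0701 to 0.291), against 0.103 over all genes, and the interval held that density.

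KMT9beta body peaks were gathered in 3 genes. Dnmt3a held 17 (1.57 per 10 kb, 0.913 to 2.51), Tet3 held 15 (1.55, 0.868 to 2.56) and Dnmt1 held 11 (2.09, 1.04 to 3.74). Their counts stood at percentiles 94.7, 93.0 and 87.6 among genes of 50 to 150 kb, whose median was 2. Tet1, about as long as Dnmt3a at 104.4 kb, held 4 (0.383, 0.104 to 0.981). Uhrf2 held 1 in 63.2 kb, and Tet2 held 0 in 81.5 kb, a count that allows up to 0.453 per 10 kb. With all peaks the intervals of Dnmt1 and Dnmt3a did not meet those of Uhrf2 and Tet2. That of Tet3 met the interval of Uhrf2 (0.00401 to 0.881) but not that of Tet2. These genes were set against each other by their counts, so gaps between the intervals are no test of chance. With equal lists Tet3 held 3, Dnmt1 and Dnmt3a 2 each, and Uhrf2 and Tet2 0, and these intervals overlapped, as did those of Dnmt1 with Uhrf2 and Tet2 when only peaks at or above the median score were kept.

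H4K12me1 body peaks were also most numerous in Dnmt3a and Tet3, with 7 each, and numbered 3 in Uhrf1, 2 in Dnmt1, 1 each in Dnmt3b, Dnmt3l, Tet1 and Tet2, and 0 in Uhrf2. KMT9alpha body peaks numbered 3 in Dnmt1 and 1 each in Dnmt3a, Tet1 and Tet3, with scores of 182.44 to 295.49, all below the list's median of 317.82. None of the 9 genes therefore had a KMT9alpha body peak above that median. The same share over the KMT9alpha body peaks of all genes is not given here, so this may not be particular to the 9 genes.

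**Figure D3:**
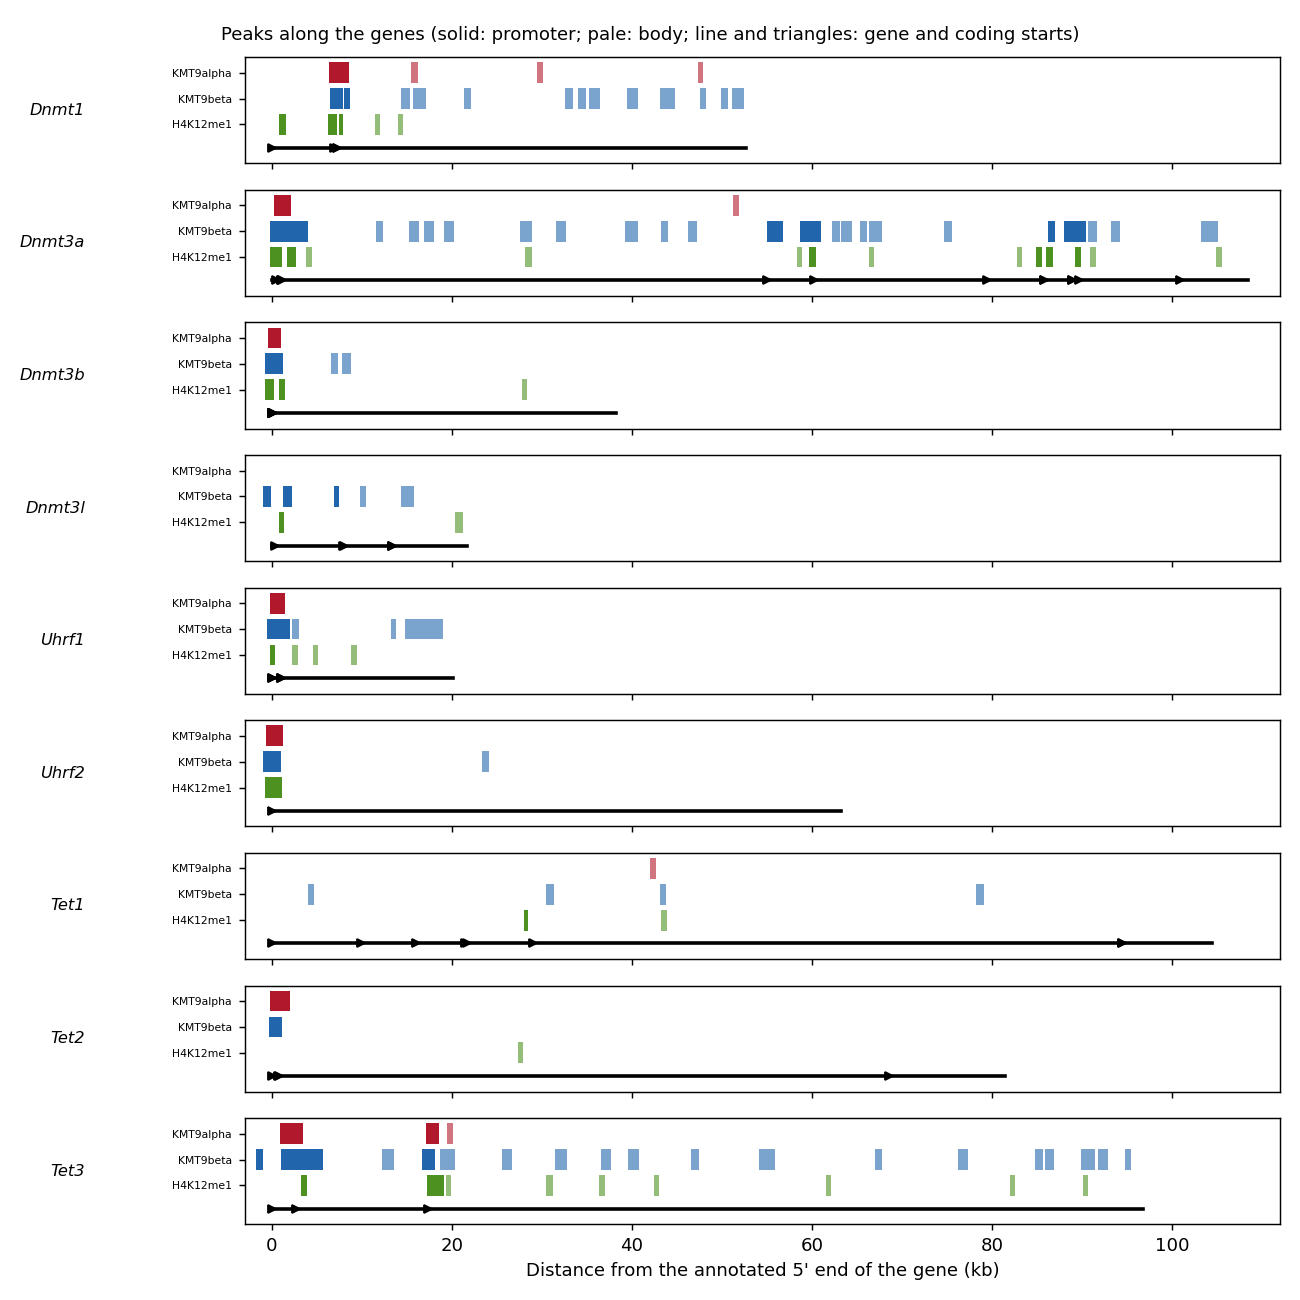
Peaks of KMT9alpha, KMT9beta and H4K12me1 are drawn to scale along each gene by distance in kb from its annotated 5′ end, with promoter peaks solid, body peaks pale and coding starts as triangles. KMT9beta body peaks recur along Dnmt1 (11), Dnmt3a (17) and Tet3 (15), while Tet2 has 0 and Uhrf2 has 1.

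GC content moved with the KMT9beta body counts. Dnmt3a (51.2% GC), Dnmt1 (50.3%) and Tet3 (49.2%) fell in the most GC-rich of 4 equal bands of the genes of 50 to 150 kb (46.2 to 56.7%), where the median was 10 body peaks and 1.59% of genes had 0. Tet1 (44.2%) was in a band with a median of 2, Tet2 (41.9%) in a band with a median of 1 and 36.0% of genes at 0, and Uhrf2 (39.1%) in a band with a median of 0. Within their band Dnmt1 (11) and Tet3 (15) lay between the median and the upper quartile of 16, and Dnmt3a (17) lay just above it. Tet1 (4) lay between the median and the upper quartile of 5 in its band, Uhrf2 (1) at the upper quartile of 1, and Tet2 (0) below the median. The part of base composition in these counts was not tested.

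**Figure D4:**
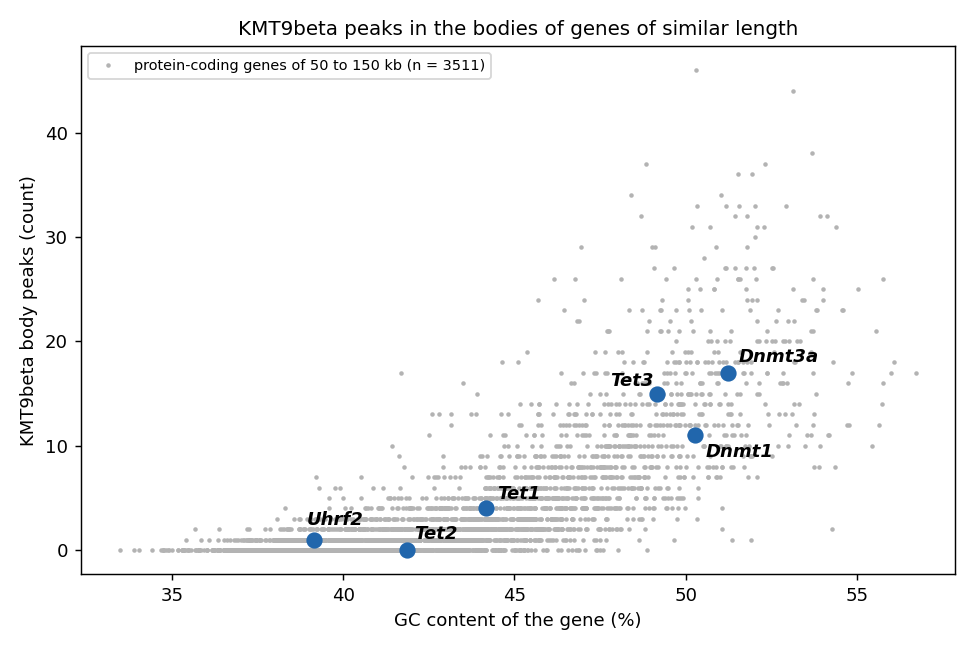
Each grey point is 1 of 3511 protein-coding genes of 50 to 150 kb, with GC content of the gene in percent on the horizontal axis and the number of KMT9beta body peaks on the vertical axis. The 6 writers and erasers of that length (blue) lie within the cloud, with Dnmt3a, Tet3 and Dnmt1 at 11 to 17 peaks and 49.2 to 51.2% GC.

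By midpoint, 44 of the 55 KMT9beta body peaks lay in introns, 8 in coding exons and 3 in non-coding parts of exons, and 21 touched a coding exon. These places were not counted over all genes, so they cannot be read as particular to the 9 genes. The longest was in Uhrf1 (chr17:56318093-56322327, 4235 bp), touched 5 coding exons and had a score of 419.72, above its own promoter peak's 108.87. That body peak stood at percentile 97.1 of the KMT9beta list by score and 99.1 by width, and overlapped neither KMT9alpha nor H4K12me1. Of the 55 peaks, 3 overlapped KMT9alpha (5.45%, 1.14 to 15.1%), against 9.45% of KMT9beta body peaks in all genes, and 10 overlapped H4K12me1 (18.2%, 9.08 to 30.9%), against 28.8%. Of the 23 H4K12me1 body peaks, 12 overlapped KMT9beta (52.2%, 30.6 to 73.2%), against 51.2%. Of the 6 KMT9alpha body peaks, 3 overlapped KMT9beta, against 62.1%, and 1 overlapped H4K12me1, against 41.1%. Taking promoter and body together, 11 of 14 KMT9alpha peaks overlapped KMT9beta (78.6%, 49.2 to 95.3%), against 80.1%, and 8 of 14 overlapped H4K12me1 (57.1%, 28.9 to 82.3%), against 53.1%. The intervals printed here held the shares over all genes. With each peak narrowed to its central 200 bp the shares of the 14 KMT9alpha peaks fell to 14.3% and 21.4%.

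The other genes of the pathway were taken from a list of methyl-CpG readers, base excision and demethylation factors, partners of the writers, partners of the TET enzymes, and enzymes of methyl donor supply. These group names describe most but not all of the genes listed under them. Of the 41 annotated genes, 39 had KMT9alpha, against 54.2% of all genes, 40 had KMT9beta, against 65.1%, and 29 had H4K12me1, against 44.9%. All 3 were at 29 (70.7%, 54.5 to 83.9%), an interval above the 35.5% of all genes. Their median CpG ratio was 0.665, also above the 0.508 of all genes, and the part of CpG content in these counts was not tested. In 10 genes both subunits were present without the mark, the pattern of Tet2, against 15.5% of all genes. No gene of the list had H4K12me1 without a subunit, the pattern of Tet1, found at 2.10% of all genes. None had KMT9beta with H4K12me1 alone, the pattern of Dnmt3l, found at 6.69%.

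All 3 libraries were at 35.5% of all genes, the share to set beside each role group. All 10 genes of the reader group had both subunits and 7 had all 3. These include Mbd3, Mbd5 and Mbd6, family members that are not established binders of methylated CpG. Also with all 3 were Mbd1 and Mbd2, proteins that bind methylated CpG. The KMT9alpha scores of Mbd1 and Mbd2 were 3100 and their H4K12me1 scores 57.56 and 57.28. Those H4K12me1 scores lay near the lowest of that list, 50.0, and below its median of 79.93. Of the 9 base excision and demethylation genes 7 had all 3, among them Apex1, the abasic site endonuclease (KMT9alpha score 3170.84), and Gadd45a (3100). Tdg, the glycosylase that removes the oxidised bases made by TET enzymes, had both subunits (KMT9alpha 3100, KMT9beta 150.82) and no mark. Neil2 had KMT9beta alone, with a score of 62.24. Tdg and Neil2 were named after their values were seen.

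Among the 11 partners of the writers 9 had all 3, including Cdca7, which acts with the remodeller Hells, and Ehmt2, a histone H3 lysine 9 methyltransferase, both with a KMT9alpha score of 3100. Dppa3, which protects methylation in the zygote and restrains Uhrf1, had no promoter peak in any library. Of the 5 TET partners 3 had all 3, including Cxxc5 and Idh1, and IDH1 makes the TET cosubstrate 2-oxoglutarate. Of the 6 genes of methyl donor supply 3 had all 3, including Mat2a, which makes S-adenosylmethionine (KMT9alpha 3100, H4K12me1 155.76), and Ahcy, which clears its product (KMT9alpha 2662.84, H4K12me1 69.5). Trdmt1, listed in this group, is a methyltransferase that does not supply the donor, and it had both subunits without the mark.

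**Figure D5:**
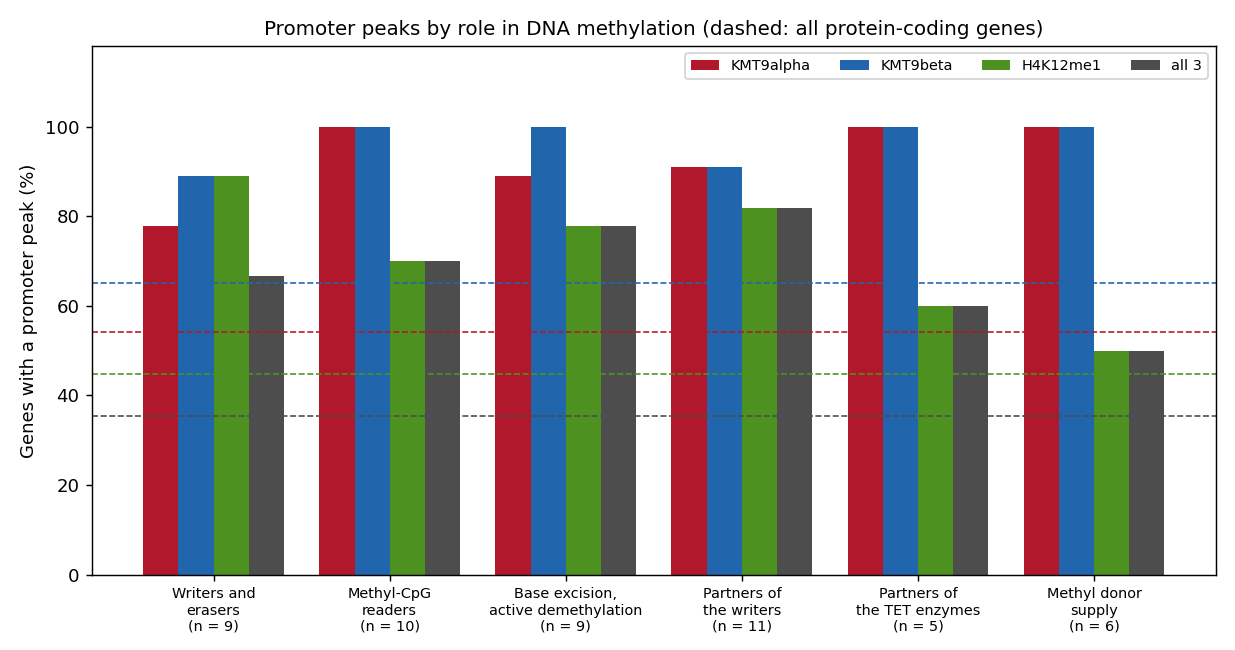
Bars give the percent of genes in each role group with a promoter peak of KMT9alpha, KMT9beta, H4K12me1 or all 3, with the number of genes under each group and dashed lines for all protein-coding genes (54.2, 65.1, 44.9 and 35.5%). The 9 writers and erasers are at 77.8, 88.9, 88.9 and 66.7%.

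The tissue label was checked by counts of promoter peaks, which do not give expression. Of 7 epithelial markers 5 had all 3 libraries, against 35.5% of all genes, and 1, Krt20, had none. The immune markers Ptprc, Cd3e, Adgre1 and Itgam had no peak in any library. Of 5 fibroblast and endothelial markers none had all 3, but 3 had KMT9beta, against 65.1% of all genes: Col1a1 alone, Pecam1 with KMT9alpha and Cdh5 with H4K12me1. Col3a1 and Dcn had no peak.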

How the data were processed

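KMT9alpha, KMT9beta and H4K12me1 were each mapped in 1 ChIP-seq library of tumour organoids. The authors deposited 1 peak list per library with a position and a score per peak. Not given in the sources used here were the meaning of the score, the caller's version, threshold and control, and the depth. Reads were mapped to mm10 with STAR per the labels' protocols, whereas Bowtie2 is named per the submitters' processing notes. Of 26227, 90473 and 60409 deposited peaks of KMT9alpha, KMT9beta and H4K12me1, those on unplaced sequences (81, 124 and 120) were left out. Positions are 1-based. An overlap was 1 bp or more with 1 kb either side of a protein-coding start of GENCODE vM21. The overlap code was tested on simulated data. Shares have exact Clopper-Pearson intervals and densities exact Poisson intervals, both 95%, for counting error only, computed in Python 3.11.15 with numpy 2.4.6 and scipy 1.17.1 (figures: matplotlib 3.10.9). With 1 library per antibody no test was made; the background is the same count over all protein-coding genes. All 9 genes are described. Of the pathway list, genes with no library at the promoter are named, and per role the pair with all 3 that scored highest for KMT9alpha (ties in order of symbol); 2 listed symbols were not in the annotation. The members and lists were chosen with earlier results of these data known. The start clusters, CpG classes, length and GC bands, the flanking arrangement and the printed sequences were chosen after the peaks had been seen. Window, score, peak number, peak width, start and overlap alternatives were tried. N6amt1, Trmt112 and the input library were not analysed here, and 1 marker gene and 1 promoter sequence are not reported here.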

Additional observations from a re-analysis of the deposited data

How the results depend on the processing

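Of 68 alternative values over 11 results, 58 stayed within 1.5 times the main count or within its counting interval. With promoter peaks included, the bodies held 14 KMT9alpha and 41 H4K12me1 peaks. With only peaks at or above the median score of their list, body peaks numbered 0 for KMT9alpha, 28 for KMT9beta and 11 for H4K12me1. With the 26146 highest peaks of each list, body peaks numbered 9 for KMT9beta and 11 for H4K12me1, and 19 pathway genes had all 3 libraries. Narrowed to 200 bp, 14.3% of the KMT9alpha peaks shared bases with KMT9beta and 21.4% with H4K12me1. These changes follow from fewer, narrower or re-sorted peaks.

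Promoter patterns of Dnmt1, Dnmt3a, Dnmt3b, Uhrf2, Tet2 and Tet3 stayed as reported in all 7 promoter alternatives, counted per gene. Uhrf1 lost H4K12me1 with peaks at or above the median score, and KMT9beta and H4K12me1 with equal list lengths. Equal lengths also removed KMT9beta at Dnmt3l and left Tet1 with no peak. A window of 2 kb added KMT9beta at Tet1, and principal starts only left Tet1 with none. The share of all genes with all 3 libraries ranged over these alternatives between 22.2 and 38.2%. Leaving out Uhrf2, an alternative chosen after seeing the data, gave 5 of 8 genes with all 3. Unknown depth limits every absence. No paired analysis was possible because each antibody has 1 library and no partner in another condition.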
